A study of Rattus norvegicus with 6 samples.

Results

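The effect of alcohol on the 3-day fracture callus of the rat was read as the difference between alcohol-fed and pair-fed rats that had both been fractured. Pair-fed fracture is called group A, pair-fed no fracture group B, alcohol-fed fracture group C and alcohol-fed no fracture group D, as in the sample titles. The difference, C minus A, was taken from the direct pairing A vs. C and from both indirect paths between these groups, so 5 of the 6 deposited pairings enter its value. One path runs through group B (A vs. B and B vs. C) and the other through group D (A vs. D and C vs. D). The sixth pairing, B vs. D, adds only to the estimate of the spread.

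All 4 groups were Sprague-Dawley rats that were weaned and 4 weeks old when the diets began. Groups C and D received a Lieber-DeCarli liquid diet with ethanol for 4 weeks, and groups A and B a pair-fed form of that diet, in which intake is matched to the ethanol-fed animals. In groups A and C a steel pin was then set in the marrow canal of the right leg bone and a closed fracture was made in the middle of the shaft. Tissue of the right hind-limb was taken after 3 days from all groups, labelled as fracture callus in A and C and as non-fracture callus in B and D. The labels do not say whether unfractured rats were pinned, how much muscle and marrow the pieces held, or whether separate rats gave the 3 numbered samples of a group. The spread behind each p-value is that between numbered samples and may be partly technical. A column deposited with its groups in the opposite order to its title would also enter that spread. No numbered sample appears in more than 1 pairing, so the 3 paths share no sample.

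At 3 days a fracture is in its inflammatory stage. Blood from the opened marrow and torn vessels has clotted, neutrophils and then macrophages have entered, and cells of the periosteum and of the adjoining muscle have begun to divide. Cartilage and bone follow later. Red cell precursors, developing neutrophils and B lymphocytes fill the marrow of a young rat, and ethanol is known to slow bone repair and to act on blood formation in the marrow.

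Every value is a log ratio of unknown base, so no folds can be given, and fitted values carry their standard error after the ± sign. The fitted value weights the direct pairing by 0.5 and each of the indirect paths by 0.25. The title's first-named group is taken as the numerator of each deposited ratio, so a positive value of C minus A lies towards the alcohol-fed rats. With ratios only, the level of a gene in a sample is unknown, and the labelled tissue could not be checked for the presence of its markers.

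This direction is not settled. Over all rows, A vs. C and A vs. D correlated at -0.621 although both hold group A as the first-named group. A second fit therefore turned the A vs. D column, which leaves the direct pairing and the path through B as they are. Its values are called turned values. For fractured rats, they are given beside the list medians and beside each named gene whose value changed sign or moved by over 1.5 times. That reading kept the sign of 148 of the 149 genes chosen for naming. A harsher reading, tried after the data were seen, turned all 3 columns that hold group C. It left less of the variation unexplained than the titles' signs (a residual share of 0.299 against 0.403, and 0.317 with A vs. D turned) and reversed all 24 of the genes with the largest values described below. On that reading 1006 rows passed the adjusted threshold used below, which is 4.27% of all. Among the 32 sign patterns compared, the lowest residual share, 0.293, turned B vs. D as well as those 3 columns. Turning B vs. D alone gave 0.38, so the sign of that column is not settled either. The signs below hold for the titles' order only.

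The 3 paths agreed in part. Across 23549 rows, 12589 of them named genes and the rest probes without a symbol, the direct values and those through B had the same sign in 56% of rows, with a Pearson correlation of 0.209 across rows. The direct values and those through D had the same sign in 48.2% of rows (r = -0.0592), and the paths through B and D in 64.8% (r = 0.428). With A vs. D turned, the direct values and those through D had the same sign in 66.4% of rows (r = 0.628). Rows of 1 column share their arrays and are not independent, so these correlations describe the columns and carry no p.

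**Figure D1:**
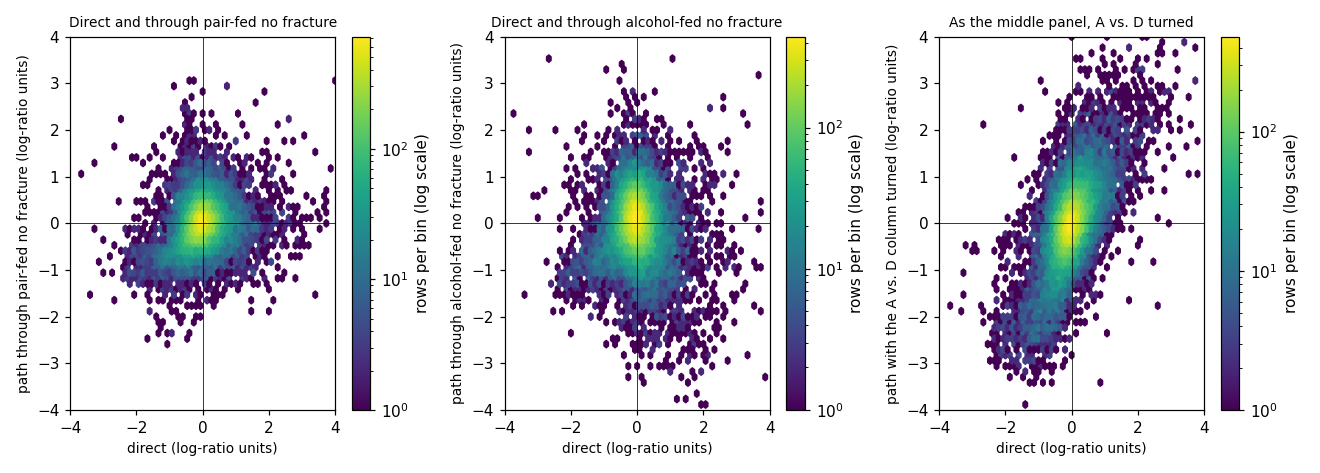
Each panel plots the direct value of every row (horizontal axis, log-ratio units) against its value on an indirect path (vertical axis, log-ratio units), with colour for the number of rows per bin on a log scale; 3, 5 and 18 rows lie beyond the axis limits of the left, middle and right panel. The cloud is weakly tilted for the path through group B (r = 0.209), has almost no tilt for the path through group D (r = -0.0592) and is tilted when the A vs. D column is turned (r = 0.628).

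No row passed an adjusted p of 0.05 for alcohol in fractured rats in the limma fit, which is 0% of 23549 rows. The smallest adjusted p was 0.103. At an unadjusted p under 0.05 there were 2712 rows, 11.5% of all, of which 1103 were positive (4.68%) and 1609 negative (6.83%). Counts within gene lists are read against these shares. At an unadjusted p under 0.01 there were 952 rows (4.04%). With ordinary variances in place of limma's moderated ones, 4 rows passed the adjusted threshold. Among rows with an unadjusted p under 0.01 and the same sign on all 3 paths, 264 were positive (1.12% of all rows) and 687 negative (2.92%). With A vs. D turned, 435 rows passed the adjusted threshold in limma (1.85%), 81 positive (0.344%) and 354 negative (1.5%), and 4777 rows (20.3%) had an unadjusted p under 0.05. Values below are therefore given as measured, and no gene is said to have changed on the titles' signs.

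The largest positive values belonged to genes of striated muscle, of monocyte chemotaxis and of several unrelated functions. Mustn1, a small nuclear protein of muscle and of skeletal repair, was at 3.36 on the direct pairing, 1.58 through B and 2.08 through D, with a fitted value of 2.60 ± 0.42. In the deposited columns its ratio was -3.36 in A vs. C, -2.11 in B vs. C and 3.00 in C vs. D, against 0.53 in A vs. B, 0.91 in A vs. D and -0.70 in B vs. D. The alcohol-fed fracture group thus stood apart from each of the other 3 groups, and those 3 lay within 1 unit of each other. Kdf1, known from the differentiation of keratinocytes, had the most even paths of the 12 positive genes, at 2.60, 2.26 and 2.72. Uchl1, a ubiquitin hydrolase of neurons and other cells, was at 2.63, 2.20 and 1.11 in the same order, and Eps15, an adaptor of clathrin-mediated endocytosis, at 1.88, 2.79 and 1.71.

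Ccl7, a chemokine that draws monocytes, was at 2.18, 1.22 and 2.52 on the direct pairing, through B and through D. Ms4a4a, a membrane protein of macrophages and the 1 gene of the 24 with more than 1 probe, was at 1.96, 1.05 and 1.48. Lypla2, an enzyme that removes fatty acids from proteins, was the least even of the 12: its direct value was 2.86, against 0.29 through B and 0.83 through D. The other 5 genes on the positive side are known from muscle. Pygm, the glycogen phosphorylase of muscle, was at 2.01 ± 0.43, and Tnni2, the inhibitory troponin of fast fibres, at 1.67 ± 0.34. Fitm1, a protein of fat storage in muscle, was at 1.67 ± 0.26, Ankrd1, a stretch-responsive repeat protein of muscle, at 1.56 ± 0.28, and Cox6a2, the striated-muscle form of a cytochrome c oxidase subunit, at 1.52 ± 0.26. All 3 paths lay on the same side of 0 for each, as the rule for naming required.

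The largest negative value was that of Alas2, the erythroid form of the enzyme that begins haem synthesis, at -3.33 on the direct pairing, -1.57 through B and -1.57 through D. Zbtb18, a zinc finger repressor of transcription, followed with -2.66, -1.61 and -1.27. Dbp, a transcription factor of circadian output, was at -2.27, -1.20 and -1.91, and Prf1, the pore-forming protein of cytotoxic lymphocytes, at -2.76, -1.03 and -0.79. Mpo, the peroxidase of neutrophil granules, was at -2.44, -0.62 and -1.58. The remaining 7 lay between -1.77 and -1.69: Pde4a, a phosphodiesterase that breaks down cyclic AMP, Capn9, a calpain protease, Npffr1, a neuropeptide receptor, Selenon, a selenoprotein of the endoplasmic reticulum, Fut1, a fucosyltransferase, Tmem30c and C1qtnf4.

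The adjusted p of these 24 genes in limma ran from 0.103 to 0.243. With A vs. D turned, 20 of them passed the threshold, 10 on each side, with adjusted p from 0.0262 to 0.121. For all 24, group C was the group farthest from the mean of the 4 groups, and the direct value exceeded both indirect values in size for 8 of the 12 positive and all 12 negative genes. With the 3 columns of group C turned, Mustn1 was at -3.32 ± 0.229 and Alas2 at 2.51 ± 0.342, and 23 of the 24 passed the threshold with the opposite sign. Of the 24 genes, 23 rest on a single probe.

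**Figure D2:**
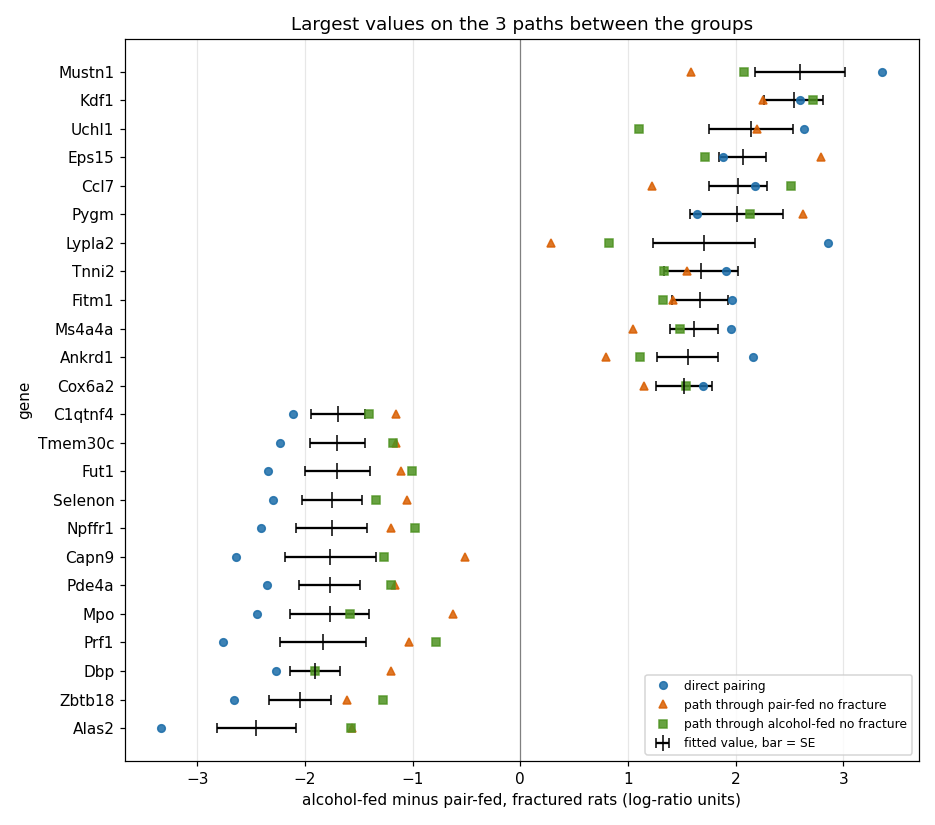
The 24 genes with the largest values (vertical axis) are plotted by alcohol-fed minus pair-fed in fractured rats (horizontal axis, log-ratio units), with the direct pairing as circles, the path through group B as triangles, the path through group D as squares, and the fitted value with its standard error as a black bar. All 3 paths of every gene lie on 1 side of 0, and the direct value is the outermost in all 12 negative genes.

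Contractile genes of skeletal muscle lay on the positive side as a group. Of 33 measured members, 29 had a positive fitted value, where 52.9% of all rows did, and their median was 0.43, where that of all rows was 0.016. Of the members, 10 were positive and 0 negative at an unadjusted p under 0.05, against 4.68% and 6.83% of all rows, and 17 were positive on all 3 paths, where 16.8% of all rows were. None passed the adjusted threshold. The medians were 0.42 on the direct pairing, 0.25 through B, 0.48 through D and 0.57 with A vs. D turned, so this list stayed positive on each path. With the 3 columns of group C turned it was -0.67. An earlier reading of these data had already shown this list on that side, so its position is no independent support.

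Within the sarcomere, proteins of the thin filament, thick filament and Z-disc were all among the positive members. For the thin filament there were Tnni2, given above, Tpm1, a tropomyosin, at 0.72 ± 0.16, and Tnnt1, the troponin T of slow fibres, at 1.27 ± 0.46. The value of Tnnt1 rested mostly on the direct pairing, at 2.18 against 0.15 through B and 0.57 through D. Myl11, the regulatory light chain of fast fibres, was at 1.04 directly, 1.76 through B and 0.86 through D, and Mybpc2, the fast myosin-binding protein C, at 1.17, 1.27 and 0.66 (turned value 1.61). Actn2, the cross-linker of actin in the Z-disc, was at 1.96, 0.78 and 1.15. Ryr1, the calcium release channel of the sarcoplasmic reticulum, was at 0.78 ± 0.31. Trim63, the ubiquitin ligase that marks myosin for breakdown and is known from wasting muscle, had a fitted value of 2.08 ± 0.69 that rested on the direct pairing, at 3.79 against 0.28 through B and 0.48 through D. The skeletal actin Acta1 was at 1.53 ± 0.69 (turned value 2.36) and myoglobin, Mb, at 0.33 ± 0.15, both with an unadjusted p above 0.05.

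Enzymes of muscle energy supply were divided. Of 20 measured members 11 were positive, with a median of 0.085 and a turned median of 0.20. At an unadjusted p under 0.05, 5 were positive and 3 negative, against 4.68% and 6.83% of all rows. Ckm, the creatine kinase of muscle, had nearly equal paths at 1.26, 1.16 and 1.28, and Ampd1, its AMP deaminase, was at 0.95, 1.46 and 1.92. On the other side, the muscle enolase Eno3 was at -0.86 ± 0.21, and Phkg1, the catalytic subunit of the kinase that activates Pygm, at -1.47 ± 0.38. Pygm and Phkg1, which act in sequence in glycogen breakdown, thus lay on opposite sides of 0. The 13 measured regulators of muscle formation and stretch response were also divided, with a median of 0.05, a turned median of 0.00, and 3 members of each sign at an unadjusted p under 0.05. Ankrd2, a stretch-responsive relative of Ankrd1, was at -0.67 ± 0.18, while Ankrd1 itself was positive. Xirp1, an actin-binding protein of injured and regenerating muscle, was at 0.67 ± 0.21 and Smpx, a small muscle protein, at -1.03 ± 0.27. Myog, the factor that turns dividing myoblasts into fibres, was at -0.06 ± 0.14 (turned value -0.09).

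In whole tissue, fewer cells of a type and less RNA per cell cannot be told apart, nor can a larger piece of adjoining muscle be told from more muscle RNA per fibre. Relative to the mean of the 4 groups, the median of the contractile list was 0.49 in group C, 0.00 in A, -0.09 in D and -0.24 in B. How much muscle each piece held was not measured, and its part in the values was not tested.

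Genes of red cell formation lay on the negative side. Of 30 measured erythroid members, 20 were negative and 10 positive, where 52.9% of all rows were positive, with a median of -0.26. Among them 8 were negative and 1 positive at an unadjusted p under 0.05, against 6.83% and 4.68% of all rows, and 13 were negative on all 3 paths, where 17.7% of all rows were. The medians were -0.15 on the direct pairing, -0.24 through B, -0.65 through D and -0.13 with A vs. D turned. With that column turned, 13 members were positive and 17 negative in place of 10 and 20, so the balance of signs was less one-sided, and with the 3 columns of group C turned the median was 0.12. On the titles' signs none passed the adjusted threshold.

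The named erythroid genes serve haem synthesis, iron supply, globin and the red cell surface. Ahsp, the chaperone that holds free alpha globin, was at -1.94 directly, -1.07 through B and -1.52 through D, and the alpha globin gene Hba-a2 itself was at -2.04, -0.58 and -1.25. Kel, the Kell blood group protease of the red cell surface, was at -1.90, -1.29 and -1.12. Slc25a37, the carrier that brings iron into the mitochondria of erythroblasts, was at -1.16, -1.10 and -0.92. All 3 paths lay below 0 for each of these 4 genes, and near-identical copies of the alpha globin gene may share the probe of Hba-a2. Ank1, the ankyrin that ties the red cell membrane to its skeleton, was the positive exception at 0.93 ± 0.28. Slc4a1, the anion exchanger of the red cell, was at -0.46 ± 0.38, with a turned value of 0.29. Klf1, a zinc finger activator of globin genes, was at 0.17 ± 0.24 (turned value 0.41), and Gata1, the master factor of the lineage, at -0.16 ± 0.28 (turned value 0.11), each with paths on both sides of 0. Over the 6 pairings Alas2, Ahsp and Kel followed the mean of 6 genes outside the lists, among them Pde4a and Npffr1, with correlations of 0.987, 0.986 and 0.98. The part of that shared pattern in the erythroid values was not tested.

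The measured enzymes of haem synthesis were taken in the order of the pathway. Alas2, which joins glycine and succinyl-CoA, stood at -2.45 ± 0.37. Alad, the next enzyme, was at 0.31 ± 0.14 (turned value 0.18). Urod, which removes carboxyl groups from the new ring, was at -1.39 directly, -0.74 through B and -0.56 through D. Cpox, the following oxidase, was at -0.39, -0.41 and -1.62, and Ppox, after it, at -0.01, 0.58 and -0.36. Fech, which inserts the iron, was at -0.66, -0.89 and -2.13. The first and the last enzyme and 2 between them were thus negative on all 3 paths, Alad was positive on all 3, and the paths of Ppox lay on both sides of 0. With A vs. D turned, Alas2 was at -2.54 with a limma adjusted p of 0.0284, Urod at -1.38 with 0.037, and Fech at -1.12 with 0.1.

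**Figure D3:**
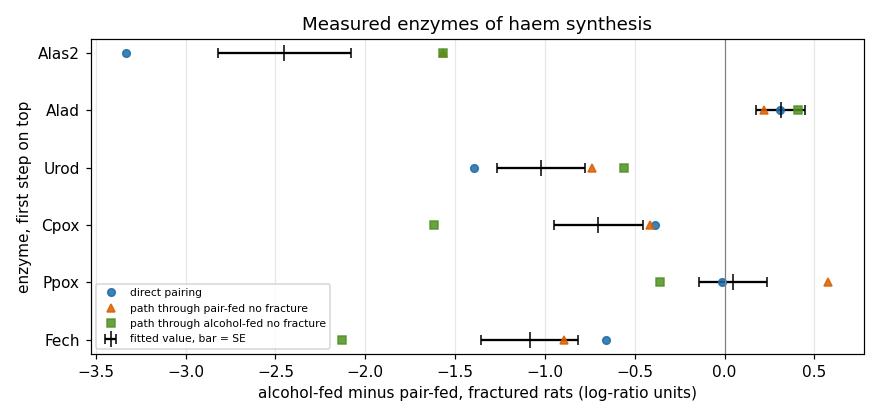
The 6 measured enzymes of haem synthesis are listed from the first step at the top to the last (vertical axis) and plotted by alcohol-fed minus pair-fed in fractured rats (horizontal axis, log-ratio units), with the direct pairing, the path through group B, the path through group D and the fitted value with its standard error. Alas2, Urod, Cpox and Fech lie left of 0 on all 3 paths, Alad lies right of 0, and Ppox spans 0.

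Genes of haem synthesis and of the red cell surface are known to carry binding motifs of the erythroid factor Gata1 near their start. The promoters of 3 negative erythroid genes are shown because each holds such a motif. The sequences come from RefSeq, build GRCr8, and run 5′ to 3′ on the strand of the gene from 250 bases before to 50 bases after its start. The motifs searched were AGATAA with its variant AGATAG, and TGATAA with its variant TGATAG, on both strands, and capitals mark the match. Alas2 lies at chrX:22895200-22895499 on the plus strand, Kel at chr4:71551724-71552023 on the minus strand and Fech at chr18:60248476-60248775 on the minus strand. With the start at position 0, the first base of the match lies at -136, -116 and -135.
Alas2: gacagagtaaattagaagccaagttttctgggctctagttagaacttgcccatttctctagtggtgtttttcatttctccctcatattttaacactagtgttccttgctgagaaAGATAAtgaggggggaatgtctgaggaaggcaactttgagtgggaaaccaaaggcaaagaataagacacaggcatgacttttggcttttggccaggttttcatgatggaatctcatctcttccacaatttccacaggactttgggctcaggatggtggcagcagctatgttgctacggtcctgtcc
Kel: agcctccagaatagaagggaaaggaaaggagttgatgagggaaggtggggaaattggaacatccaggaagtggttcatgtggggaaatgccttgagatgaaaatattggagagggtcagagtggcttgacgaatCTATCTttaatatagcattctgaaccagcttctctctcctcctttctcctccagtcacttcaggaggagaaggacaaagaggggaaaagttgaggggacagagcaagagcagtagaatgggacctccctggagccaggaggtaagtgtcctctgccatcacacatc
Fech: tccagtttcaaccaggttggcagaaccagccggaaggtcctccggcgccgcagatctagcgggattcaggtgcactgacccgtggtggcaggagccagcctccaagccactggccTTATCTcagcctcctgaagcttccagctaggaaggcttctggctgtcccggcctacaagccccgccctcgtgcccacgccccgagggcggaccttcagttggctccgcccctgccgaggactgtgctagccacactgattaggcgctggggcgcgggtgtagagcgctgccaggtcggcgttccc
Of the 22 measured erythroid members with a promoter sequence, 13 (59.1%) held such a motif. Of all 33469 promoters of the same length, 30.3% did. The former share counts genes and the latter counts promoters. A gene with several promoters would have more chances of a match, so the shares cannot be compared directly. A match is a run of letters and not a shown binding site.

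Genes of cell division lay on the negative side of the titles' signs, and this balance depended on the A vs. D column. Of 42 measured proliferation genes, 31 were negative with a median of -0.21, and at an unadjusted p under 0.05, 12 were negative and 0 positive, against 6.83% and 4.68% of all rows. The medians were -0.06 on the direct pairing, -0.16 through B and -0.50 through D. With A vs. D turned, the median was 0.01 and 23 of the 42 were positive. Members with the smallest p were named, a choice that favours even paths. Mki67, the antigen of cycling cells, was at -1.61, -0.85 and -1.50, and Cdc20, an activator of the anaphase-promoting complex, at -1.13, -1.18 and -0.79. Cdc6, which loads the replication helicase, was at -0.92 ± 0.19, and Mcm7, a subunit of that helicase, at -0.79 ± 0.17. These 4 had the same sign with the column turned, at -1.41, -1.09, -1.29 and -0.97 for Mki67, Cdc20, Cdc6 and Mcm7. Other members were uneven across the paths, such as Pcna at -0.92, 0.02 and -2.14 and Fen1 at -2.03, -0.15 and -0.88. Of 8 measured histone genes, whose messages appear in S phase, 6 were negative, with a median of -0.28. The largest was Hist1h2bo at -1.28 ± 0.28. With the 3 columns of group C turned, the medians were -0.01 for proliferation and 0.26 for histones.

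Neutrophil genes had a median of -0.18 and a turned median of -0.21, with 13 of 19 negative, where 52.9% of all rows were positive. At an unadjusted p under 0.05, 3 were negative and 1 positive, against 6.83% and 4.68% of all rows. Besides Mpo, S100a9, a subunit of the calprotectin complex of neutrophils, was at -1.28, -0.82 and -0.71 on the direct pairing, through B and through D. Csf3r, the receptor of the growth factor of granulocytes, was at -0.44 ± 0.18 (turned value -0.70). Mmp8, the collagenase of neutrophil granules, lay on the other side at 0.48 ± 0.17, and Camp, a peptide of the same granules, was at -0.50 ± 0.35.

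Genes of B lymphocytes were mostly negative, and those of T and NK cells less so. For B lymphocytes 11 of 14 were negative, with a median of -0.17 and a turned median of -0.20. Of these, 4 were negative and 0 positive at an unadjusted p under 0.05, against 6.83% and 4.68% of all rows. Vpreb1a, part of the surrogate light chain of B cell precursors, was at -0.94, -0.73 and -1.08, and Cd72, a surface receptor of B cells, at -0.59, -0.56 and -0.67. Cd79b, of the B cell receptor, was at -1.32 directly, -0.65 through B and 0.00 through D. For T and NK cells 16 of 26 were negative and 10 positive, and with A vs. D turned 12 were positive. Their median was -0.05 and the turned median -0.01. Prf1 was the 1 member of 26 with an unadjusted p under 0.05, where 11.5% of all rows had one. Cd3e, of the T cell receptor complex, was at -0.09 ± 0.20 (turned value -0.02), and Gzmb, the granzyme released together with Prf1, at -0.05 ± 0.17 (turned value 0.07).

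Macrophage genes were balanced, with 14 of 27 positive, a median of 0.03 and a turned median of 0.07. Members positive at an unadjusted p under 0.05 were Lyz2, the macrophage lysozyme, at 0.54 ± 0.15, Aif1, an actin-binding protein of activated macrophages, at 0.50 ± 0.15, Cd14, the co-receptor for endotoxin, at 0.59 ± 0.20, and Tyrobp, an adaptor of myeloid receptors, at 0.44 ± 0.18. Those negative were Fcgr3a, an Fc receptor, at -0.42 ± 0.16, C1qb, of the first complement component, at -0.42 ± 0.17, and Lgals3, a galectin, at -0.42 ± 0.18. Csf1r, the receptor of the macrophage growth factor, was at 0.22 ± 0.16. Of 33 chemokines and their receptors 13 were positive, with 3 on each side at an unadjusted p under 0.05, a median of -0.10 and a turned median of -0.08.

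Among chemokines that draw monocytes, Ccl12 was at 0.66, 1.06 and 0.72, on the same side as Ccl7. Ccl2, of the same group, was at 0.17 directly, -0.44 through B and -0.83 through D. Ccl3 and Ccl4, related inflammatory chemokines, split at 1.41 ± 0.43 and -1.11 ± 0.24, and Ccl4 passed the threshold with A vs. D turned (limma adjusted p = 0.0262). Ccl22, a product of dendritic cells and macrophages, was at -1.45, -0.62 and -0.75, and Ccr7, the receptor that guides lymphocytes and dendritic cells to lymph nodes, at -0.44 ± 0.14.

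The cytokines that lead textbook accounts of the inflammatory callus were close to 0. Tnf was at 0.14 ± 0.18, Il1b at 0.14 ± 0.19 and Il6 at -0.22 ± 0.15, each with an adjusted p in limma above 0.6. The paths of Tnf and Il1b lay on both sides of 0, and the turned values of Tnf, Il1b and Il6 were -0.02, 0.06 and -0.43. For the 47 measured cytokines and receptors the median was 0.03 and the turned median -0.06. Of them, 2 were positive and 6 negative at an unadjusted p under 0.05, against 4.68% and 6.83% of all rows. Il18, a cytokine released by the inflammasome, was at 1.97, 0.34 and 1.60, and Mif, a factor that holds macrophages in place, at 0.58, 0.93 and 2.84 (turned value 0.81). The negative members were Il4 at -0.88 ± 0.19, Ltb, of the lymphotoxin complex, at -0.93 ± 0.23, Il12a at -0.74 ± 0.22, Ifng at -0.47 ± 0.14, Il1r1, the signalling receptor of interleukin 1, at -0.87 ± 0.30, and Il11 at -0.42 ± 0.15 (turned value -0.64). Il4, Il12a, Ifng and Ltb are known as products of lymphocytes or as factors that act on them, and so is Il18, which lay on the positive side.

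Genes of the interferon response had a median of -0.04 and a turned median of -0.03, with 1 positive and 4 negative of 29 at an unadjusted p under 0.05. Mx1, an antiviral GTPase, was at 1.34, 0.92 and 1.24, whereas Gbp2, a guanylate-binding protein, was at -0.69, -0.76 and -0.51. Irf3 and Irf8, factors of interferon signalling and of myeloid cells, were at -0.87 ± 0.17 and -0.48 ± 0.17. Of 36 complement and coagulation genes 21 were positive, with a median of 0.09 and a turned median of 0.07. Cd55, which protects cells from complement, was at 0.61 ± 0.14 and Fgb, a chain of fibrinogen, at 0.55 ± 0.15 (turned value 0.33), while C9, of the membrane attack complex, was at -0.56 ± 0.22 (turned value -0.84).

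Few genes of bone formation passed even the unadjusted threshold. For 30 measured genes of osteoblasts and bone matrix the median was 0.04 and the turned median 0.09, with 1 positive and 1 negative at an unadjusted p under 0.05, against 4.68% and 6.83% of all rows. Runx2 and Sp7, the transcription factors that commit cells to the osteoblast, were at -0.16 ± 0.17 (turned value -0.08) and 0.14 ± 0.20 (turned value 0.28), and Bglap, osteocalcin, at 0.35 ± 0.25. Col1a2, a chain of type I collagen, was at -0.73, -0.46 and -0.40, and Dcn, a proteoglycan that binds collagen, at 0.30, 0.56 and 0.75, with a fitted value of 0.48 and a turned value of 0.30.

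Of 22 measured chondrocyte genes, 15 were negative, with a median of -0.06 and a turned median of -0.20. Matn1, a matrix protein of cartilage, was the 1 chondrocyte gene with an unadjusted p under 0.05, at -1.20, -1.21 and -0.67. It passed the threshold with A vs. D turned, at -1.25 (limma adjusted p = 0.0262). Col2a1, the main collagen of cartilage, was at -0.28 ± 0.14, and Acan, its main proteoglycan, was negative on the direct pairing, at -0.42, and positive on both indirect paths, at 0.80 and 0.87, with a fitted value of 0.21 and a turned value of -0.22. Osteoclast genes were positive in 12 of 15, where 52.9% of all rows were, and in 9 of 15 with A vs. D turned. Their median was 0.14 and their turned median 0.18. The 2 members largest in size were proteases with a strong direct value that the paths did not share. Ctsk, the collagen-degrading cathepsin of osteoclasts, was at -3.18 directly, -0.80 through B and 0.59 through D, and Mmp9, a gelatinase of osteoclasts and neutrophils, at -3.06, -0.31 and 0.63. Without A vs. C, the fitted value of Mmp9 was 0.157.

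Genes of the early callus matrix had a median and a turned median of 0.05 over 33 members, with 3 positive and 2 negative at an unadjusted p under 0.05. Mfap5, a microfibril protein, was at 0.66 ± 0.17, Col8a1, a short-chain collagen, at 0.79 ± 0.23, and Col6a2, of type VI collagen, at 0.57 ± 0.23. Fbln1 and Thbs4, a fibulin and a thrombospondin, were at -0.73 ± 0.17 and -0.73 ± 0.20. Matrix proteases and their inhibitors were balanced, with 17 of 29 positive, a median of 0.03 and a turned median of -0.05.

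Members of the BMP and TGF-beta pathway, which directs cells to cartilage and bone, had a median of 0.05 and a turned median of 0.04. Of 42 members, 0 were positive and 4 negative at an unadjusted p under 0.05, close to the 4.68% and 6.83% of all rows. Bmp2, the ligand known in mice to be needed to start fracture repair, was at -0.23 directly, -0.05 through B and -1.03 through D, with a fitted value of -0.39 ± 0.21 (limma adjusted p = 0.558) and a turned value of -0.08. Inhbb, a subunit of activin B, was at -1.28, -0.94 and -0.65, and Fst, the follistatin that traps activins, at -0.63, -1.32 and -1.53, so an activin subunit and its antagonist lay on the same side. Bmp5 was at -0.51 ± 0.16 and Smad4, the shared transducer of the pathway, at -1.37 ± 0.45. The turned value of Smad4 was -0.60 ± 0.71, with its path through D at 2.50.

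Wnt signalling showed no balance either way, with a median and a turned median of 0.00 over 49 members and 3 on each side at an unadjusted p under 0.05. Those with the smallest p were Dvl1, which relays the signal from the receptor, at -0.89, -0.89 and -0.55, and Dkk3, a secreted relative of Wnt inhibitors, at -0.54, -0.89 and -0.85. Fzd2 and Fzd7, related receptors, were at 0.41 ± 0.15 and -0.43 ± 0.18 (turned value of Fzd7 -0.66). Among 38 growth factor genes, with a median and a turned median of 0.09, Fgf10 was at -0.64 ± 0.17, Igfbp1, a liver-derived binding protein of insulin-like growth factors, at -0.69 ± 0.16, Fgf21, a hormone of metabolic stress, at 0.74 ± 0.24, and Pdgfra, a receptor of mesenchymal cells, at 0.53 ± 0.21 (turned value 0.82).

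Vessel and hypoxia genes had a median of -0.04 and a turned median of -0.03 over 37 members. Of these, 0 were positive and 3 negative at an unadjusted p under 0.05, and 13 were negative on all 3 paths against 3 positive, where 17.7% and 16.8% of all rows were. Vegfa, the leading growth factor of vessels, had close paths at -0.29, -0.36 and -0.39 (limma adjusted p = 0.433). Bnip3, a hypoxia-induced protein of mitochondrial clearance, was at -1.76, -1.13 and -1.04, and Pgf, a relative of Vegfa, at -0.21, -0.61 and -1.09. The turned value of Pgf was -0.06, with its path through D at 0.77. Hmox1, which breaks down haem, was at -0.40 ± 0.16. Smooth muscle and pericyte genes were divided, at a median of 0.06 and a turned median of 0.10, with Tagln, an actin-binding protein, at 0.89 ± 0.26 and Lmod1, which starts actin filaments in smooth muscle, at -0.96 ± 0.28. Vim, the intermediate filament of mesenchymal cells, was at 0.27 directly against 2.37 through B and 1.94 through D.

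Enzymes that oxidise alcohol and aldehydes, and the related P450 enzymes, include those that clear ethanol. None of 26 measured members had an unadjusted p under 0.05, where 11.5% of all rows had. The median was 0.01 and the turned median 0.00. Aldh2, the mitochondrial enzyme that clears acetaldehyde, was at -0.20 ± 0.23 (turned value -0.11), and Cyp2e1, the P450 enzyme that ethanol induces in liver, at 0.01 ± 0.16 (turned value 0.06). Acss2, which turns acetate into acetyl-CoA, was at 0.34 ± 0.15.

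Antioxidant and glutathione genes were positive in 27 of 36 with a median of 0.09 and a turned median of 0.10, and the peroxiredoxins, which remove hydrogen peroxide, split by member. Prdx5 was at 0.74, 0.76 and 0.89. Prdx4, of the endoplasmic reticulum, was at 0.88 ± 0.31, with 1.53 directly against 0.34 through B and 0.13 through D. Prdx3, of mitochondria, was at -1.25, -0.73 and -0.96, and Prdx2, abundant in red cells, at -0.57 ± 0.23 (turned value -1.07). Mt1, a metal-binding protein induced by stress, was at 1.57, 0.05 and 1.62, so the path through B did not share its value.

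Genes of the mitochondrial respiratory chain were positive in 37 of 51 with a median of 0.12, and those of the mitochondrial ribosome in 39 of 57 with a median of 0.15, where 52.9% of all rows were positive. The turned medians were 0.20 and 0.14. At an unadjusted p under 0.05, the counts were 3 positive and 1 negative for the chain and 4 of each sign for the ribosome. Besides Cox6a2, the chain held Ndufa1, of complex I, at 0.53 ± 0.15, and Cox5a at 0.46 ± 0.17. In the ribosome, Mrpl37 was at 1.51 ± 0.34 and Mrpl19 at -1.65 ± 0.27, proteins of the same large subunit on opposite sides.

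Genes of ubiquitin tagging and the proteasome were divided, with 27 of 49 positive, a median of 0.04 and a turned median of 0.05. Ube2g1, a conjugating enzyme, was at -1.24 ± 0.17, and Psmb5, a catalytic subunit of the proteasome, at -1.33 ± 0.40, against Ube2d1, another conjugating enzyme, at 0.82 ± 0.25. The paths of Psmb5 were uneven, at -2.075 directly, -0.15 through B and -1.04 through D. Of 39 heat shock and chaperone genes 27 were positive, with a median of 0.06 and a turned median of 0.08. Hspb1, a small heat shock protein, was at 1.48, 0.47 and 1.14. Adipocyte genes were positive in 17 of 27 with a median of 0.18 and a turned median of 0.10, while their median through B was -0.05. Cebpa, a transcription factor of fat and myeloid cells, was at 1.07 ± 0.35, and Plin2, a coat protein of lipid droplets, at 0.64 ± 0.22. The value of Cebpa rested mostly on the direct pairing, at 1.88 against 0.19 through B and 0.33 through D. The turned value of Plin2 was 0.10, with its path through D at -0.81. Fabp4, the fatty acid carrier of fat cells, was at -0.52 ± 0.29.

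Of 18 clock genes, Dbp and its relative Tef, at -0.34 ± 0.14, had an unadjusted p under 0.05. The median of the clock list was -0.02 and its turned median -0.10. Bmal1, the activator in the core loop, was at 0.06 ± 0.16. Of the repressors, Per1 was at 0.02 ± 0.16 (turned value -0.10), Nr1d1 at 0.21 ± 0.14 and Cry1 at 0.65 ± 0.34 (turned value 1.28), the last with paths of 1.31, 0.54 and -0.55. The labels give no hour of sampling, so its part in the value of Dbp was not tested. Immediate early genes, the first transcripts after a stimulus, were positive in 18 of 23 with a median of 0.13, and none had an unadjusted p under 0.05. Their turned median was 0.14, and their median on the direct pairing alone was -0.06.

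**Figure D4:**
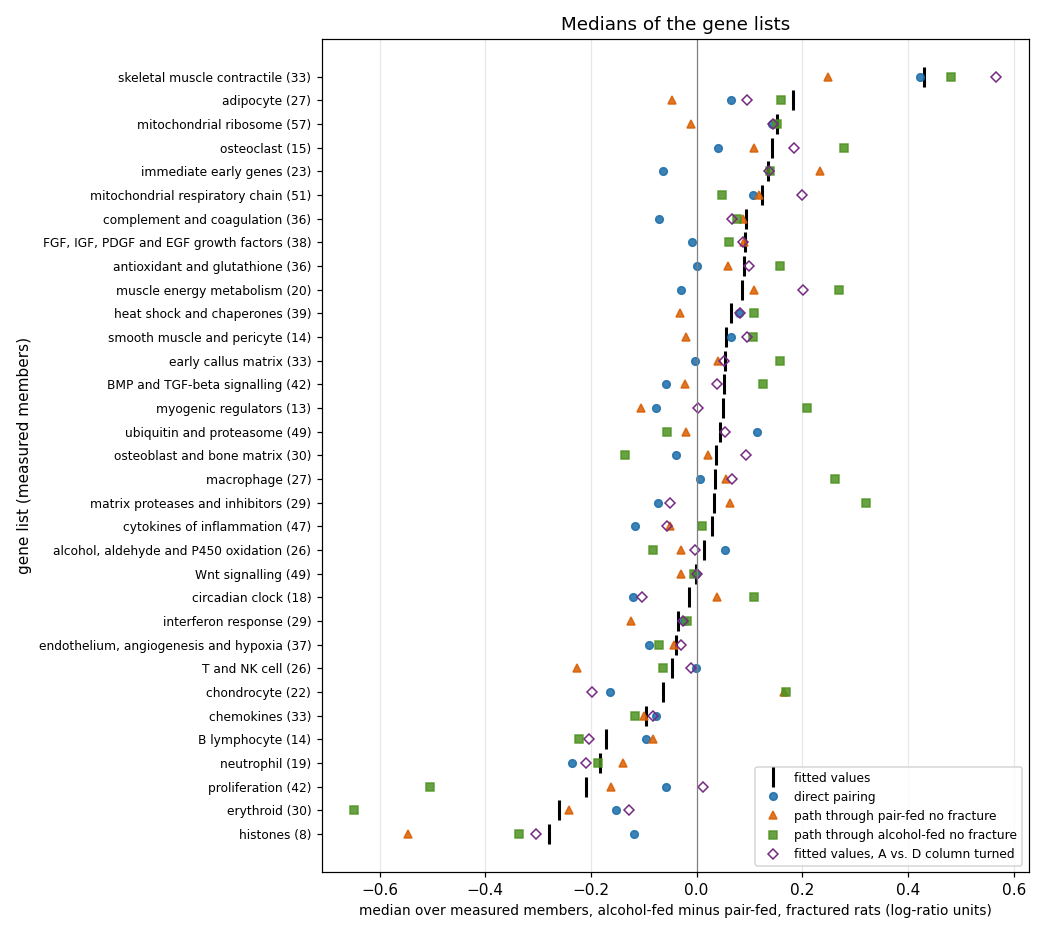
Each row is a gene list with its number of measured members (vertical axis), placed by the median over those members of alcohol-fed minus pair-fed in fractured rats (horizontal axis, log-ratio units) for the fitted values, the 3 paths and the fit with the A vs. D column turned. Skeletal muscle contractile genes lie farthest to the right at 0.43, histones at -0.28 and erythroid genes at -0.26 farthest to the left for the fitted values. When the column is turned, erythroid genes lie at -0.13, to the right of neutrophil, B lymphocyte and chondrocyte genes, and the proliferation list lies at 0.01.

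The same diet comparison in unfractured rats, group D minus group B, served to ask whether these values belonged to fractured rats. The spread of the fitted values over rows was smaller without fracture, with a standard deviation of 0.226 against 0.349. No row passed the adjusted threshold in limma without fracture (0% of rows), and 819 rows (3.48%) had an unadjusted p under 0.05. The difference between the diet effects with and without fracture passed the adjusted threshold in 0 rows, and 2492 (10.6%) had an unadjusted p under 0.05. With ordinary variances 2 rows passed it, and with A vs. D turned 0 did. No gene can thus be called particular to fractured rats.

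The 24 largest genes were chosen by their values in fractured rats, so smaller values without fracture follow in part from that choice, and they are given with no test. Mustn1 was at 0.03 ± 0.42 and Alas2 at 0.21 ± 0.37 without fracture, and Kdf1 at -0.90 ± 0.28. On the titles' signs, the 12 negative genes were all positive without fracture, between 0.0429 and 0.683. Of the 12 positive genes, 9 were positive there too, up to 1.05 for Pygm. The direct pairing behind these values is B vs. D, whose sign is not settled, and A vs. D enters them too. No turned values are given without fracture, so these signs may not hold on another reading. Both comparisons come from 1 fit to the same 6 columns and share its estimate of the spread.

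The lists were also set beside each other, on the titles' signs only. Contractile genes had a median of 0.13 without fracture, with 24 of 33 positive, on the same side as with fracture. Erythroid genes had a median of 0.13 with 20 of 30 positive, on the opposite side. The respiratory chain was positive in 14 of 51 without fracture against 37 of 51 with it, heat shock and chaperone genes in 11 of 39 against 27, and immediate early genes in 6 of 23 against 18. Differences between list medians were not tested. Turned medians are not given without fracture, and the unsettled sign of B vs. D bears on each of these values.

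**Figure D5:**
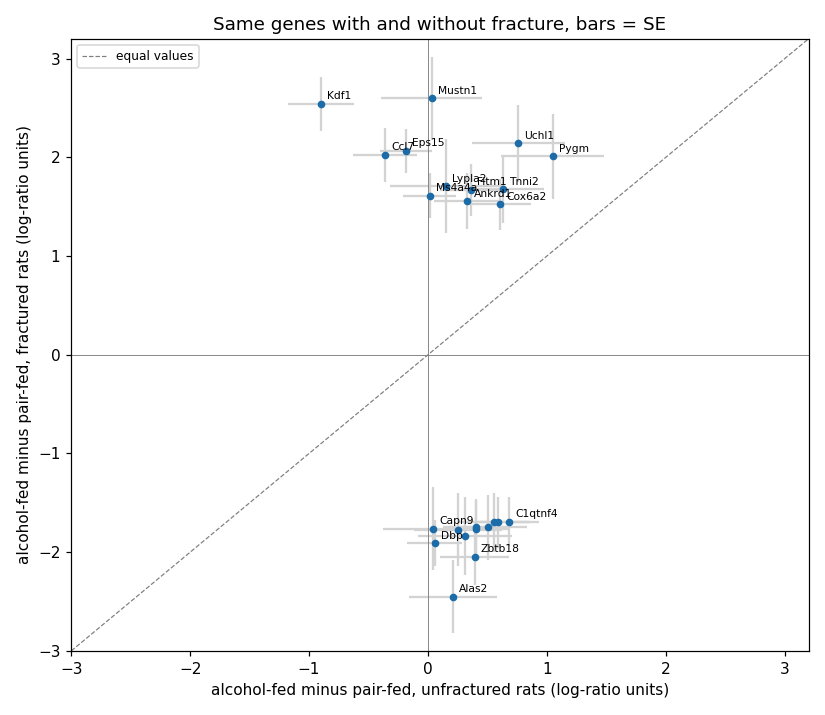
The 24 genes with the largest values are plotted by alcohol-fed minus pair-fed without fracture (horizontal axis) and with fracture (vertical axis), both in log-ratio units, with standard errors as grey bars and a dashed line for equal values. On the titles' signs, all 24 lie farther from 0 on the vertical axis, by which they were chosen. Kdf1 lies left of 0 at -0.90, and Pygm lies farthest right at 1.05.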

How the data were processed

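The arrays were 2-colour oligonucleotide arrays, on which samples of 4 rat groups were paired. The series design text lists 12 arrays including dye swaps, and the deposited table holds 6 columns, so each column seems to combine a dye-swap pair. The authors' deposited values are log2, log10 or natural log ratios, 1 per probe and pairing, while their base and numerator, the scanner, the background correction and the filters are not stated in the labels or the series text. Each deposited column has a mean of 0, so a shift shared by all genes cannot be seen. Standard deviations of the columns ran from 0.2516 (A vs. B) to 0.5724 (C vs. D). Dim probes could not be left out, and precision is limited by how few arrays there are.

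Of 26503 probes, 22 control spots were left out. Symbols came from the platform annotation and were updated through RefSeq's rat table (11824 current, 3638 updated, 59 kept). Probes of a gene were averaged, which left 23549 rows. One limma 3.58.1 model (R 4.3.3) was fitted to all 6 pairings, with +1 for the first-named and -1 for the second-named group, 3 residual degrees of freedom and a prior of 3.66 degrees with a standard deviation of 0.258. Every p is two-sided, and adjusted p-values are limma's with the Benjamini-Hochberg method over all rows, at a threshold of 0.05.

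The comparison and the 33 gene lists (984 of 1300 listed genes were measured) were chosen with earlier results of these data known, so lists are described by counts and medians with no test. Named genes were the 12 largest positive and 12 largest negative with a symbol that is no provisional locus, an unadjusted p under 0.01 and the same sign on 3 paths, up to 4 members of each list by smallest p, and Aldh2, Bglap, Bmp2, Il1b, Il6, Runx2, Sp7, Tnf and Vegfa. Other list members named, such as Trim63, Ckm, Acta1, Hba-a2, Klf1, Gata1, Ccl2 and Cyp2e1, were chosen after their values were seen, and haem enzymes were given for every measured step. Alternatives turned or rescaled columns, centred them on the median, changed the variance estimate or the probe taken, or left out pairings. Data with 23549 rows were simulated for the alcohol effect in fractured rats. The model recovered 16% of 100 rows changed by 1 unit and 85% of 100 changed by 2 units. In a separate run with no changed rows it called 0 rows. False calls among the unchanged rows of the run with changes were not counted.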

Additional observations from a re-analysis of the deposited data

How the results depend on the processing

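No paired analysis was possible because each pairing is 1 deposited column, each numbered sample is on 1 pairing and the numbers only name samples. The count of 0 rows past the adjusted threshold stayed 0 with scaled columns, median-centred columns, robust variances, the probe of largest ratio, A vs. C turned, and each of the 6 pairings left out. It was 435 with A vs. D turned, 4 with ordinary variances and 1006 with the 3 columns of group C turned, an alternative chosen after seeing the data. At an unadjusted p under 0.05 the main count of 2712 became 4777 with A vs. D turned and 5295 with the 3 columns of group C turned, and it ran from 1462 (without A vs. B) to 2993 (without A vs. D) when 1 pairing was left out. For the difference between fractured and unfractured rats, the count of 0 became 2 with ordinary variances. Of the 149 genes chosen for naming, 44 passed the threshold with A vs. D turned, and Tnf reversed to -0.0245. On the direct pairing alone Bglap reversed to -0.0366. With 1 pairing left out, Mmp9 ran from -2.07 to 0.157, Cidea from -0.033 to 1.2, Cry1 from -0.00443 to 1.02, Tnf from -0.000509 to 0.243, Il1b from -0.00226 to 0.24 and Sp7 from -0.181 to 0.27. The other genes of these 149 kept their sign unless A vs. C or the columns of group C were turned. Of genes named beyond the 149, Acan, Gata1, Gzmb, Per1 and Slc4a1 had the opposite sign with A vs. D turned, and Acan, Ccl2, Gata1, Gzmb and Ppox on the direct pairing alone. With A vs. C turned, 22 of the 24 largest genes reversed, and with the 3 columns of group C turned all 24 did. Of 33 list medians, 5 changed sign with A vs. D turned: cytokines to -0.0569, proliferation to 0.0125, matrix proteases to -0.0502, Wnt signalling to 0.00153 and alcohol oxidation to -0.0023. On the direct pairing alone 11 changed sign. Apart from turning A vs. C or the columns of group C, 14 of the 33 medians kept their sign under every alternative, those of contractile, erythroid, neutrophil, B lymphocyte and respiratory chain genes among them. The cause of these changes was not tested.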

Other observations

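Of the 12 genes with the largest negative values, 6 from different families had nearly the same ratios in every column: Pde4a, Npffr1, Selenon, Fut1, Tmem30c and C1qtnf4. Their deposited ratios lay between 2.11 and 2.41 in A vs. C, 0.859 and 0.963 in B vs. C, and -2.07 and -1.63 in C vs. D. In the columns without group C they lay between 0.178 and 0.255 for A vs. B, -0.779 and -0.376 for A vs. D, and -0.406 and -0.105 for B vs. D. The 6 were picked after their values were seen, and each has 1 probe.

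Over the 6 pairings, 414 rows (1.76% of all) correlated above 0.97 with the mean profile of these genes, and 73 rows correlated below the same limit with its sign turned. Of the 414, 220 are named genes. Since the 6 genes come from the largest negative values, other rows with large negative values resemble them in part by that choice. Alas2, Ahsp, Kel, Mpo, Prf1, Zbtb18, Bnip3, Inhbb, Ccl4, Mrpl19 and Phkg1 are among the 414. So are Ccl22, Smpx, Igfbp1, Prdx3, Psmb5, Fgf10 and Matn1. The part of this shared pattern in the values given for these genes was not tested. Mki67, Cdc20 and Slc25a37, with correlations of 0.894, 0.913 and 0.864, stand outside the set. The pairings share groups and are not independent, so these correlations carry no p.

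Olfactory receptor genes, which callus tissue is not known to use, were looked at as a background. Of 837 such rows, 7.77% were negative and 6.45% positive at an unadjusted p under 0.05, where 6.83% and 4.68% of all rows were, and their median was 0.0081. The shares at an unadjusted p under 0.05 were thus above those of all rows on both sides. The profile above was found in 12 of the olfactory receptor rows (1.43%), below the 1.76% of all rows. How much message these genes had was not measured. The brightness of the probes was not used, so its part in the counts was not tested.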
